A study of Rattus norvegicus with 12 samples.

Results

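The 5 genes described here belong to the smooth muscle contractile apparatus and were followed through coronary arterioles of the rat: Acta2, Myh11, Tagln, Des and Tpm1. They were taken by Ensembl ID from a list that used no threshold on measured values, and are ENSRNOG00000058039 (Acta2), ENSRNOG00000057880 (Myh11), ENSRNOG00000017628 (Tagln), ENSRNOG00000019810 (Des) and ENSRNOG00000018184 (Tpm1). The count table held all 5 of these IDs among its 24600 gene IDs, and all 5 passed the filter on low counts. The vessels were arterioles under 150 µm in diameter, taken from branches of the left anterior descending artery near the apex of the heart, in female Fischer-344 rats. Young control rats were 3 months old and untreated, and old control rats were 24 months old and untreated. Old SVF rats, listed at 24 months, had received 10000000 stromal vascular fraction cells from adipose tissue into the tail vein at 23 months of age. Their vessels were taken 4 weeks later. Each group had 4 libraries of polyadenylated RNA, and the RNA came from at least 5 microvessels pooled within a group. The labels do not say that the libraries came from separate animals, so the p-values measure the spread between these RNA samples, which may be partly technical. The labels describe the old controls as untreated and name no injection of vehicle.

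Smooth muscle cells form the wall of an arteriole and set its diameter by contracting. Myh11 encodes smooth muscle myosin heavy chain, the motor that pulls on actin filaments, and Acta2 encodes smooth muscle alpha-actin, the filament it pulls on. Tagln encodes transgelin (SM22-alpha), an actin-binding protein, and Tpm1 encodes a tropomyosin that lies along the actin filament. Des encodes desmin, the intermediate filament protein of muscle cells. Serum response factor, with its coactivator myocardin, switches on many genes of this kind by binding a short promoter element called the CArG box. Acta2, Myh11 and Tagln are widely used as markers of smooth muscle, whereas Des and Tpm1 are also abundant in heart muscle cells.

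The RefSeq promoter table (GRCr8 build) held 3 of the 5 genes, and the 250 bases before each start site are shown because they carry, or lack, the element just described. A CArG box was searched on both strands as CC and GG around 6 core letters. At least 5 of the core letters had to be A or T, and capitals mark the matches. The Acta2 stretch is at chr1:241172504-241172753 on the minus strand, the Des stretch at chr9:84299376-84299625 on the plus strand, and the Tpm1 stretch at chr8:76543416-76543665 on the minus strand.
Acta2: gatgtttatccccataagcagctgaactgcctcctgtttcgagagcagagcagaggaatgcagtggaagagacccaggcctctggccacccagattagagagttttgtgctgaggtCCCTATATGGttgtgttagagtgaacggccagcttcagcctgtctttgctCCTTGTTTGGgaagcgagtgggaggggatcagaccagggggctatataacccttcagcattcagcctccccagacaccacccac
Des: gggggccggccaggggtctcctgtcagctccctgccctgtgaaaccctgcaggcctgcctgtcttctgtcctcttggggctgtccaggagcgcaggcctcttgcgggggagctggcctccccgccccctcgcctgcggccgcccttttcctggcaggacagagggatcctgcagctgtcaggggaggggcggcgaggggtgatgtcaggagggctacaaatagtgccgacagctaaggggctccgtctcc
Tpm1: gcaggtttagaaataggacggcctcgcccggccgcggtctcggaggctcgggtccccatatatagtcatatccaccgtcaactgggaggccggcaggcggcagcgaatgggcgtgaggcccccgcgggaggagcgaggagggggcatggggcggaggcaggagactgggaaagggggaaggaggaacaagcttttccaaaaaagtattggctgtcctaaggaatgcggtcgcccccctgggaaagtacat
The Acta2 stretch held 2 matches, CCCTATATGG from 134 to 125 bases before the start site and CCTTGTTTGG from 84 to 75 bases before it. Each match has 5 core letters that are A or T. The Des and Tpm1 stretches held no match in this window. Of 33469 RefSeq promoters of the same length, 8.08% held at least 1 such match and 0.693% held 2 or more. With all 6 core letters required to be A or T, 1.5% of promoters held a match and none of these 3 did. These matches describe the letters only, and binding was not measured. The counts themselves were made on the rn6 build.

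Total counts per library ran from 4068021 to 10821485. The 5 genes took 2.52% to 4.14% of all counts in a library, and this share averaged 3.50% ± 0.674 for young control, 3.43% ± 0.495 for old control and 2.99% ± 0.442 for old SVF libraries (SD, n = 4). Between 14641 and 102041 reads stood behind each value, so that the counting error of a single value was at most 0.826%. Old SVF replicate 2 had the lowest median rank correlation with the other libraries, 0.939, and the other 11 lay between 0.945 and 0.963. Tagln was the gene with the most reads in 9 of 12 libraries, and its lowest rank was 9. Acta2 ranked between 2 and 12 and Myh11 between 2 and 14, and Tpm1 ranked between 5 and 16 and Des between 15 and 31. These ranks are of reads, which depend on transcript length as well as on the level of a gene. The 3 common smooth muscle markers were thus among the most heavily sequenced genes of every library. Markers of other cell types were not analysed here, because the tables used here pair 0 of the table's IDs with a symbol. In whole vessels, a smaller share of smooth muscle cells and less RNA per cell cannot be told apart.

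The motor gene Myh11 stood at nearly the same level in young and old controls and at a lower mean in old SVF rats. In young controls it was at 8718, 6929, 4632 and 8979 CPM in replicates 1 to 4, where CPM are read counts scaled by TMM to a common library size. In old controls it was at 8866, 6918, 7054 and 6299 CPM, and in old SVF rats at 5245, 7807, 4414 and 5431 CPM. Young control replicate 3 and old SVF replicate 3 were the lowest libraries, and the 3 groups overlapped. The group means were 7315 ± 2007, 7284 ± 1105 and 5724 ± 1457 CPM (SD, n = 4).

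Acta2, the actin of the contractile filament, had its highest mean in young controls, an intermediate mean in old controls and its lowest mean in old SVF rats. The young control libraries were at 9124, 8567, 5211 and 10011 CPM in replicates 1 to 4. The old control libraries were at 9055, 5589, 7027 and 6357 CPM, and the old SVF libraries at 5819, 7265, 4728 and 5385 CPM. Young control replicate 3 lay well below the other 3 young libraries and within the range of the old SVF rats, so that the groups overlapped. The means were 8228 ± 2097, 7007 ± 1487 and 5799 ± 1075 CPM (SD, n = 4).

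Tagln, the actin-binding transgelin, spanned nearly as wide a range within the old SVF group as over the series. It was at 10142, 12976, 7128 and 11937 CPM in young control replicates 1 to 4. It was at 12651, 10456, 11378 and 9635 CPM in old controls, and at 9109, 12541, 6210 and 9033 CPM in old SVF rats. The same 2 libraries, young control replicate 3 and old SVF replicate 3, were lowest. The means were 10546 ± 2562, 11030 ± 1294 and 9223 ± 2591 CPM (SD, n = 4).

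Tpm1, the tropomyosin of the thin filament, did not have its lowest values of the series in those libraries, although young control replicate 3 was lowest of its group. It was at 5773, 6866, 5406 and 6599 CPM in young control replicates 1 to 4. It was at 6542, 5218, 5272 and 4263 CPM in old controls, and at 5360, 3514, 6728 and 5320 CPM in old SVF rats. Old SVF replicate 3, the lowest library for Tagln, was the highest of its group for Tpm1, and old SVF replicate 2 was the reverse. The means were 6161 ± 685, 5324 ± 935 and 5230 ± 1319 CPM (SD, n = 4).

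Des, the intermediate filament gene, varied least. It was at 3067, 3702, 2479 and 3750 CPM in young control replicates 1 to 4. It was at 4203, 4000, 3949 and 3170 CPM in old controls and at 3356, 3506, 3438 and 3577 CPM in old SVF rats. The 4 old SVF libraries lay close together, with a coefficient of variation of 2.72%, against 11.8% in old controls and 18.5% in young controls. The means were 3250 ± 600, 3831 ± 454 and 3469 ± 94.3 CPM (SD, n = 4).

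**Figure D1:**
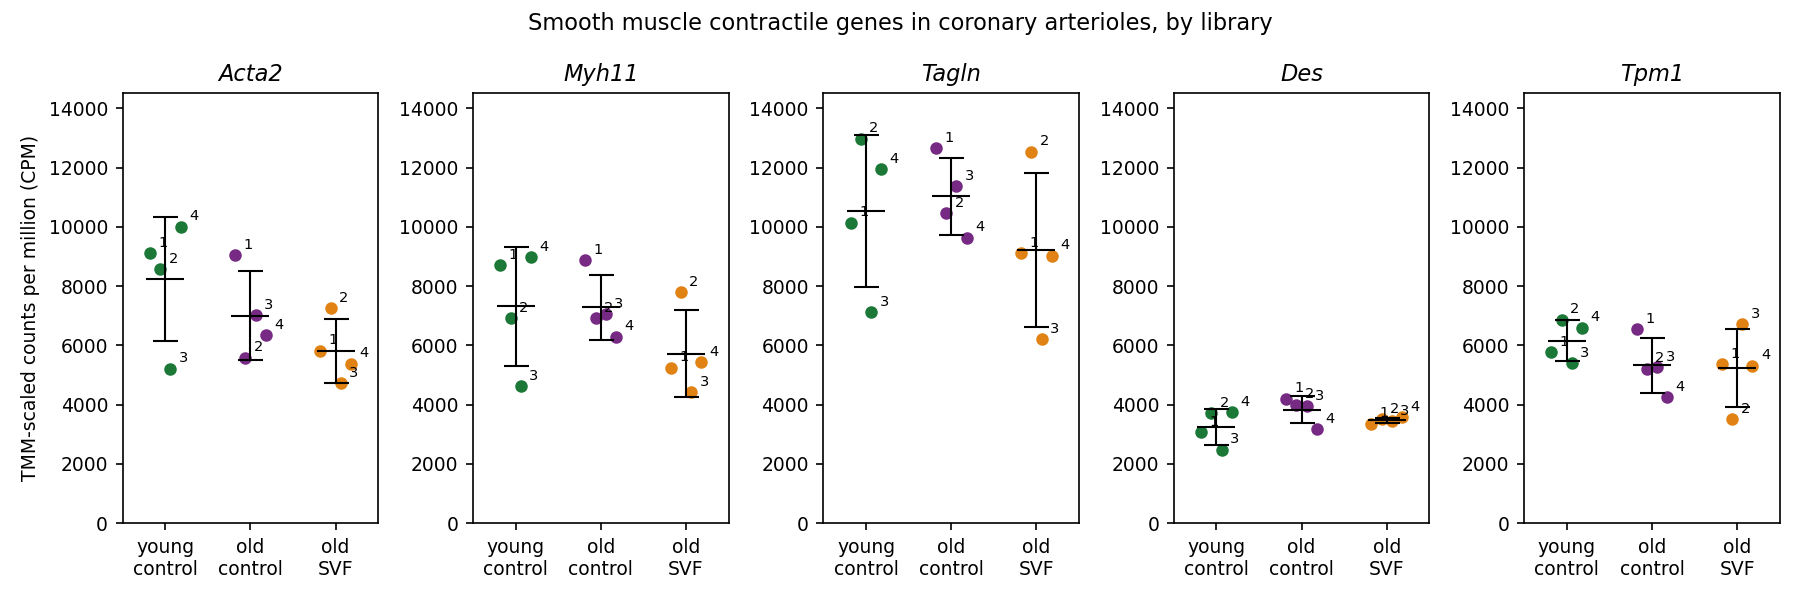
TMM-scaled read counts in CPM (vertical axis, from 0) of the 5 genes in each library, by group; points are libraries with their replicate number, and the black marks are the mean ± SD of 4 libraries. The groups overlap for every gene, and replicate 3 is the lowest young control library in each panel.

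Each gene was tested in 3 comparisons with edgeR's quasi-likelihood test across all 12496 genes that passed the filter. Age was addressed by old control against young control, cell injection by old SVF against old control, and the joint difference by old SVF against young control. A gene was called at a Benjamini-Hochberg adjusted p under 0.05 over the 12496 genes. In each comparison the 2 groups overlapped for all 5 genes. Of all tested genes, 3.50% had groups that did not overlap for age. The share was 2.42% for old SVF against old control and 4.65% for old SVF against young control. With shares this low, overlap for all 5 genes does not set them apart from other genes.

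With age, none of the 5 genes was called, and their fold changes went in both directions. Of all genes tested, 0.0400% were called in old control against young control by the same rule. An unadjusted p under 0.05 was reached by 0 of the 5 genes and by 5.34% of all genes. DESeq2 and limma voom with quality weights also called 0. By voom, Des alone had an unadjusted p under 0.05 (0.0490, adjusted p = 0.621). The log2 fold change, old minus young, was -0.23 for Acta2 (SE 0.21, 95% interval -0.66 to 0.20). It was -0.0060 for Myh11 (95% interval -0.45 to 0.43) and 0.06 for Tagln (95% interval -0.38 to 0.51). The signs of the Myh11 and Tagln values turned when single libraries were left out, with ranges of -0.17 to 0.12 and -0.08 to 0.18. The Acta2 value ranged from -0.40 when young control replicate 3 was left out to -0.11 when young control replicate 4 was. In the former case edgeR gave an unadjusted p of 0.0487 and an adjusted p of 0.940. With young control replicate 3 and old control replicate 1 both left out the Acta2 value was -0.53, with an unadjusted edgeR p of 0.00572 and an adjusted p of 0.270. For Acta2 these are the lowest young library (5211 CPM) and the highest old control library (9055 CPM). Leaving them out thus widens the difference by construction. Tpm1 was at -0.21 (95% interval -0.61 to 0.19), and an old control library exceeded a young control library in 2 of the 16 possible pairs. Des was at 0.24 (95% interval -0.10 to 0.58), with the old control library higher in 14 of 16 pairs. Without single libraries Tpm1 ranged from -0.32 without old control replicate 1 to -0.12 without old control replicate 4, and Des from 0.13 to 0.32 when young control replicates 3 and 4 were left out in turn. The adjusted p was 1.00 for each of the 5 (edgeR). The median log2 fold change of the 5 genes was -0.0060, and that of all tested genes was -0.0091.

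In old rats given SVF cells, all 5 genes had means below those of old controls, and none was called. The log2 fold change was below 0 for 50.5% of all tested genes. Acta2, Myh11 and Tagln varied together between libraries, as described below, so the 5 genes are not separate observations. No gene of the whole table was called in this comparison (0% of 12496). In the main edgeR fit an unadjusted p under 0.05 was reached by 0 of the 5 genes and by 2.94% of all genes. DESeq2 and limma voom with quality weights called 0. By voom the unadjusted p was 0.0257 for Myh11 and 0.0365 for Tagln (adjusted p = 0.953 for each), and over 0.05 for the other genes. Myh11 had the lowest log2 fold change, SVF minus old control, at -0.35 (SE 0.21, 95% interval -0.79 to 0.09, edgeR adjusted p = 0.999). Acta2 was at -0.27 (95% interval -0.70 to 0.16) and Tagln at -0.26 (95% interval -0.70 to 0.18). Des was at -0.14 (95% interval -0.48 to 0.20) and Tpm1 at -0.03 (95% interval -0.42 to 0.37). For Tpm1 an old SVF library exceeded an old control library in 10 of 16 pairs, against 3 or 4 of 16 for each other gene. The median over the 5 was -0.26, against -0.0033 over all tested genes. Old SVF replicate 2, the library with the lowest rank correlation, was the highest of its group for Acta2, Myh11 and Tagln. Without it Myh11 was at -0.53, Tagln at -0.44 and Acta2 at -0.40, still with no call. The unadjusted edgeR p was then 0.0137 for Myh11, 0.0356 for Tagln and 0.0621 for Acta2 (adjusted p = 0.9998 for each). With old control replicate 4 left out as well, the unadjusted edgeR p was 0.0101, 0.0265 and 0.0563 in the same order (adjusted p = 0.9997 for each). Leaving out the highest library of a group lowers its mean by construction. Old control replicate 4 was the lowest of its group for Myh11 and Tagln and below the group mean for Acta2. Leaving it out thus raises the old control means and also widens the differences by construction. Without old SVF replicate 3 Tagln was at -0.11, and without old control replicate 1 Acta2 was at -0.13. Without old control replicate 4 Des was at -0.23. The Tpm1 value turned positive without old SVF replicate 2, at 0.12.

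Old SVF rats differ from young controls in age and in treatment. In this comparison Acta2 was at 5799 ± 1075 against 8228 ± 2097 CPM (SD, n = 4). This was 0.705-fold, or -0.50 on the log2 scale (SE 0.21, 95% interval -0.94 to -0.07). Its unadjusted edgeR p was 0.0237, and it did not pass the correction (adjusted p = 0.615). An old SVF library exceeded a young control library in 3 of 16 pairs. Leaving out single libraries moved the value between -0.67 and -0.39. The unadjusted edgeR p then lay between 0.00187, without young control replicate 3, and 0.0982, without young control replicate 4, and was under 0.05 in 8 of 12 cases. These include every case without an old control library, which is in neither group compared here (0.0146 to 0.0311). The p was also over 0.05 without young control replicate 1 (0.0622), old SVF replicate 3 (0.0751) or old SVF replicate 4 (0.0548). The lowest adjusted p among all alternatives was 0.0748 (edgeR), without young control replicate 3 and old control replicate 1. Myh11 was at -0.35 (95% interval -0.79 to 0.09), Tagln at -0.19 (95% interval -0.63 to 0.25) and Tpm1 at -0.24 (95% interval -0.63 to 0.16). Myh11 moved between -0.54 without old SVF replicate 2 and -0.23 without young control replicate 4. Tagln moved between -0.38 without old SVF replicate 2 and -0.046 without old SVF replicate 3, and Tpm1 between -0.38 without old SVF replicate 3 and -0.087 without old SVF replicate 2. Des was at 0.09 (95% interval -0.25 to 0.43), and its sign turned without young control replicate 3. Thus 0 of the 5 genes were called, beside 0.0640% of all genes, and 1 of 5 had an unadjusted p under 0.05, beside 7.11% of all genes. DESeq2 and limma voom with quality weights also called 0 of the 5. For Acta2 the unadjusted p was 0.00919 by DESeq2 (adjusted p = 0.361) and 0.00280 by voom (adjusted p = 0.263). For Myh11 voom gave an unadjusted p of 0.0109 (adjusted p = 0.384). The other unadjusted values of these 2 methods were over 0.05. The comparison shares the young controls with the comparison for age and the old SVF libraries with the comparison for treatment, so its values are not independent of theirs.

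**Figure D2:**
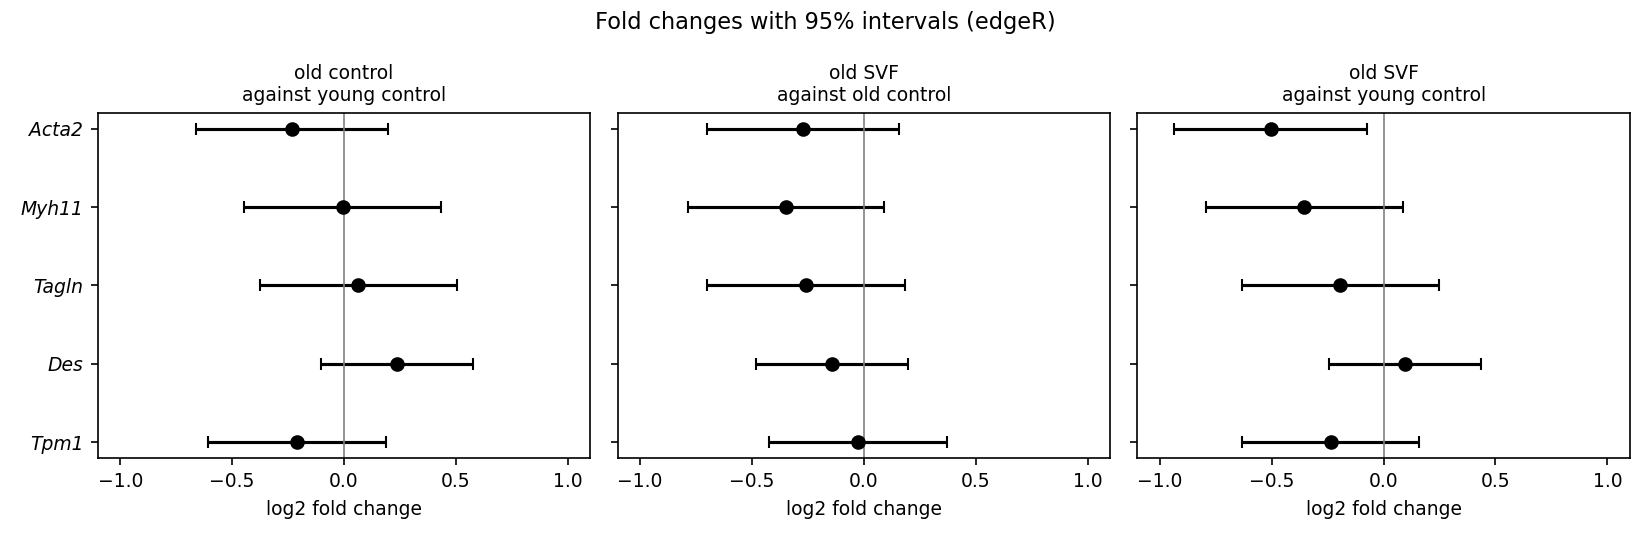
Log2 fold changes (horizontal axis) of the 5 genes in the 3 comparisons, as edgeR estimates with 95% intervals. The interval of Acta2 in old SVF against young control, -0.94 to -0.07, leaves out 0 before correction for the number of genes tested; the other 14 intervals include 0.

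The intervals of these abundant genes reached 0.34 to 0.44 on the log2 scale to either side of the estimate, against a median of 0.59 over all tested genes for age. For old control against young control, Myh11 changes beyond 0.735-fold and 1.35-fold lay outside its 95% interval. For Des the bounds were 0.932-fold and 1.49-fold. For old SVF against old control, the bounds were 0.579-fold and 1.07-fold for Myh11 and 0.614-fold and 1.11-fold for Acta2. Counting error was far below these widths, so the spread between libraries set the precision. The SD of log2 CPM within groups was 0.33 for Acta2, 0.35 for Myh11 and 0.34 for Tagln. It was 0.28 for Tpm1 and 0.19 for Des. The median over the 101 genes with a mean above 1000 CPM, which include these 5, was 0.28.

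Acta2, Myh11 and Tagln varied together from library to library. Young control replicate 3 was below the 12-library mean by 0.39 for Acta2, 0.51 for Myh11 and 0.49 for Tagln on the log2 scale. Old SVF replicate 3 was below it by 0.53, 0.58 and 0.69 in the same order. Old control replicate 1 was above it by 0.41, 0.43 and 0.33. Des was also low in young control replicate 3, at -0.49, but not in old SVF replicate 3, at -0.02. Tpm1 was at -0.02 and 0.30 in these 2 libraries.

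**Figure D3:**
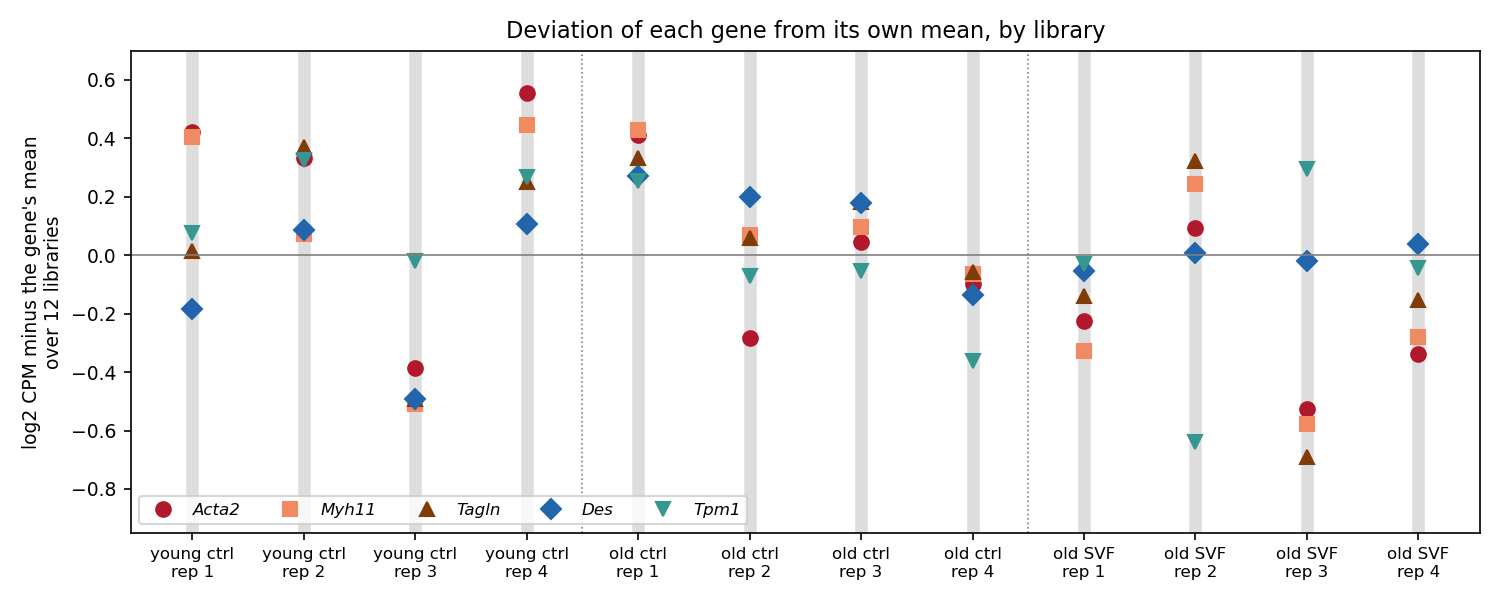
Log2 CPM of each gene minus its own mean over 12 libraries (vertical axis), by library; dotted lines separate the groups. Acta2, Myh11 and Tagln lie together at the bottom in young control replicate 3, where Des lies with them at -0.49, and in old SVF replicate 3. Tpm1 is lowest in old SVF replicate 2, at -0.64.

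The 10 pairs of genes were compared by correlation of log2 CPM over the 12 libraries, with permutation p-values adjusted over the 10 pairs. Of these, 3 passed an adjusted p under 0.05, and they are the 3 pairs among Acta2, Myh11 and Tagln. For actin and myosin, Acta2 and Myh11, Pearson's r was 0.908 (permutation p = 0.00013, adjusted p = 0.00075) and Spearman's rho 0.937 (permutation p = 4e-05, adjusted p = 0.0004). For Myh11 and Tagln r was 0.863 (permutation p = 0.00015, adjusted p = 0.00075) and rho 0.811 (p = 0.00198, adjusted p = 0.0099). For Acta2 and Tagln r was 0.802 (permutation p = 0.00122, adjusted p = 0.00407) and rho 0.790 (p = 0.00349, adjusted p = 0.0116). All 3 pairs passed without any single library. All 3 also passed with the group means removed, at r = 0.930, 0.845 and 0.848 in the order given (exact permutation within groups, adjusted p = 0.00796, 0.0159 and 0.0112).

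Without the 2 libraries farthest from the median of the gene named before the other in each pair, Acta2 and Myh11 still passed, at r = 0.859 (permutation adjusted p = 0.0225, n = 10 libraries). Acta2 and Tagln were at r = 0.749 (permutation p = 0.013, adjusted p = 0.0651), and Myh11 and Tagln at 0.704 (permutation p = 0.0272, adjusted p = 0.0906). These 2 pairs thus lost their calls when 2 libraries at the ends of the range were left out together, old SVF replicate 3 with young control replicate 4 or 3. This also narrows the range and lowers the number of libraries, and the parts of these were not tested. All genes of a library share 1 scaling factor. With RLE factors or library totals in place of TMM the same 3 pairs passed. Acta2 and Myh11 were then at r = 0.906 and 0.903, Myh11 and Tagln at 0.860 and 0.857, and Acta2 and Tagln at 0.797 and 0.795. What sharing a factor adds to the correlations was not tested.

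None of the 7 pairs that include Des or Tpm1 passed over the 12 libraries. Whether their correlations differ from those among Acta2, Myh11 and Tagln was not tested. Des had r = 0.611 with Tagln (rho = 0.629, permutation p = 0.0351 and 0.0316, adjusted p = 0.0877 and 0.079), 0.503 with Myh11 (rho = 0.497, permutation p = 0.0899 and 0.103, adjusted p = 0.18 and 0.205) and 0.349 with Acta2 (rho = 0.301, permutation p = 0.273 and 0.341, adjusted p = 0.455 and 0.568). Without the 2 farthest libraries these were 0.541, 0.242 and 0.346. With group means removed they were higher, at 0.684, 0.633 and 0.657 (exact permutation within groups, p = 0.00593, 0.0691 and 0.0768, adjusted p = 0.0159, 0.11 and 0.11), so that Des and Tagln then passed. That pair also passed without old SVF replicate 3, at 0.782 (permutation adjusted p = 0.0174). Des and Myh11 passed without young control replicate 1, at r = 0.673 (permutation adjusted p = 0.0397). Tpm1 had r = 0.229 with Acta2, 0.00054 with Myh11, -0.105 with Tagln and 0.212 with Des (rho = 0.203, 0.0559, 0.0769 and 0.0629). The permutation p-values of r were 0.481, 0.998, 0.745 and 0.496, with adjusted values of 0.62, 0.998, 0.828 and 0.62, and those of rho were 0.526, 0.868, 0.817 and 0.853. Without the 2 farthest libraries the values of r were 0.340, 0.259, 0.224 and 0.182. With group means removed they were 0.0122, -0.152, -0.198 and 0.486, of which the last, Des and Tpm1, had an exact permutation p of 0.0287 within groups (adjusted p = 0.0574). The correlation of Tagln and Tpm1 turned to 0.165 without old SVF replicate 2 and to 0.154 without old SVF replicate 3, the libraries in which these genes were furthest apart.

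**Figure D4:**
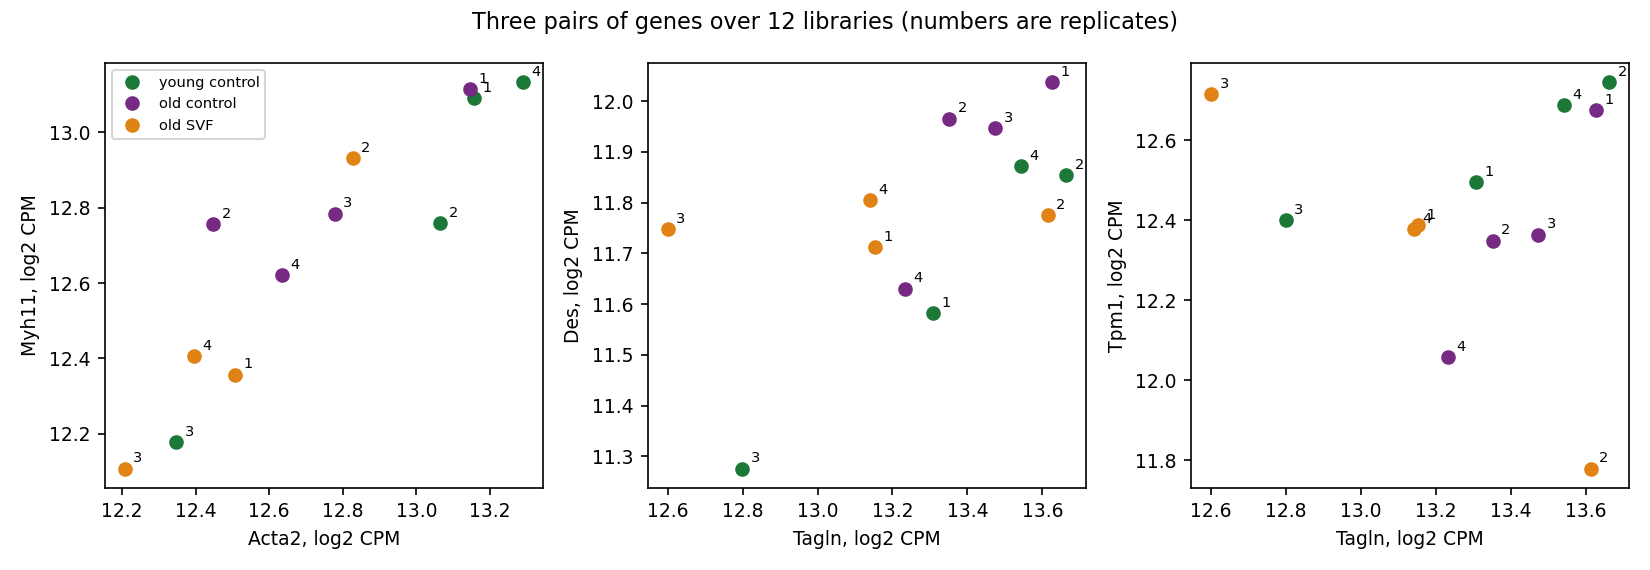
Log2 CPM of 3 pairs of genes over 12 libraries, coloured by group with replicate numbers. Acta2 and Myh11 lie along a line (r = 0.908), Tagln and Des do so loosely (r = 0.611), and Tagln and Tpm1 do not, with old SVF replicates 2 and 3 at opposite corners (r = -0.105).

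The ratio of 2 genes' reads within a library does not depend on how libraries are scaled. Transcript lengths cancel when such a ratio is compared between libraries only if each gene's mix of transcripts is the same in them. That was not tested. The ratio of Acta2 to Myh11 ran from 0.808 to 1.24 over the 12 libraries, a 1.53-fold span, whereas each gene alone spanned more than that, with 2.12-fold for Acta2 and 2.03-fold for Myh11. The ratio of Tpm1 to Tagln ran from 0.280 in old SVF replicate 2 to 1.08 in old SVF replicate 3, a 3.87-fold span within 1 group. The Tpm1 to Tagln ratio was 0.480 ± 0.0338 for old control, 0.602 ± 0.105 for young control and 0.635 ± 0.332 for old SVF libraries (SD, n = 4).

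Of the 10 ratios among the 5 genes, 3 did not overlap between old and young controls. Among all 5050 ratios of genes with a mean above 1000 CPM, 9.23% did not overlap in that comparison. The 10 ratios share genes and were examined after the values were seen, so they are given as a description without a test. The Acta2 to Myh11 ratio lay between 1.05 and 1.24 in young controls and between 0.808 and 1.02 in old controls. The Tagln to Tpm1 ratio lay between 1.32 and 1.89 in young controls and between 1.93 and 2.26 in old controls. The Des to Tpm1 ratio lay between 0.459 and 0.568 in young controls and between 0.643 and 0.767 in old controls. Desmin and transgelin reads were thus higher relative to tropomyosin reads in the old control libraries, and actin reads lower relative to myosin reads. The old SVF libraries overlapped both control groups for each of these 3 ratios. Between old SVF rats and old controls, 0 of 10 ratios did not overlap (0.376% of all such ratios). Between old SVF rats and young controls it was 1 of 10 (6.79% of all such ratios), the Acta2 to Des ratio, at 1.38 to 2.07 in old SVF rats and 2.10 to 2.97 in young controls.

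**Figure D5:**
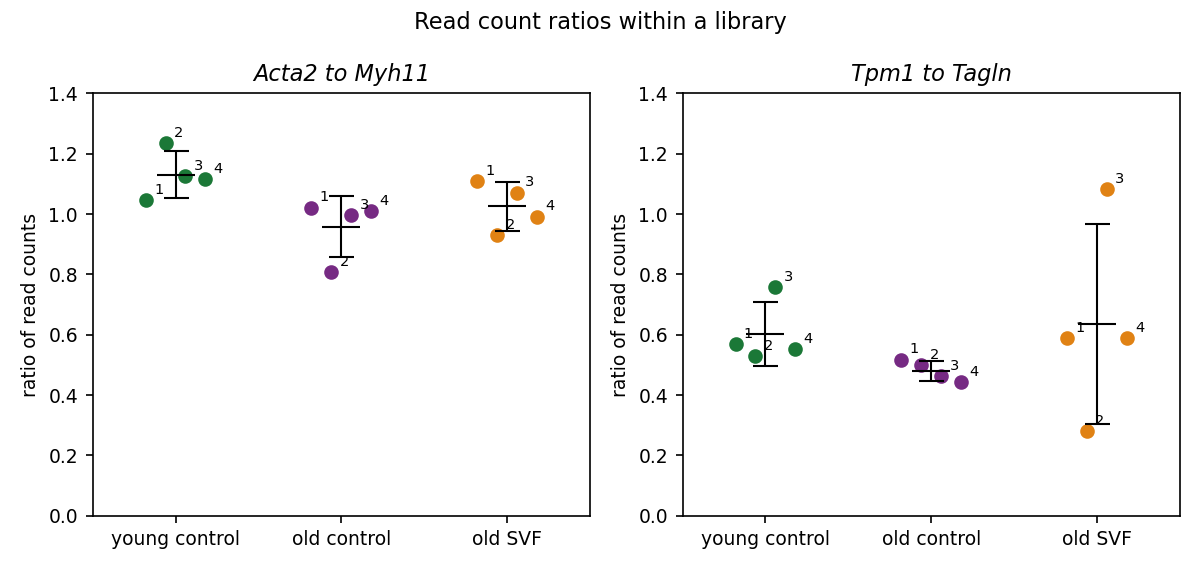
Ratios of read counts within a library (vertical axis, from 0) by group, with replicate numbers and the mean ± SD of 4 libraries in black. For Acta2 to Myh11 all old control libraries lie below all young control libraries, and for Tpm1 to Tagln old SVF replicates 2 and 3 lie at 0.280 and 1.08.

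Among the other 10278 genes with a mean of at least 5 CPM, the patterns most like those of the 5 genes were found by Pearson's r of log2 CPM over the 12 libraries. The files do not pair IDs with symbols, so genes are given as IDs, and these were limited to 4. ENSRNOG00000008937 was most like Tagln, at r = 0.991, and ENSRNOG00000054890 was most like Acta2, at r = 0.974. The pattern nearest to Tpm1 was that of ENSRNOG00000001285, at r = 0.938. The highest r was 0.954 for Myh11 and 0.887 for Des. Each is the highest of 10278 values over 12 libraries, and how high such a maximum runs by chance was not tested. Over the mean of the 5 correlations, ENSRNOG00000020246 was highest, at 0.712. For Acta2, 11 of these 10278 genes had a higher r than Myh11 had, and for Myh11 there were 4 with a higher r than Acta2. More genes exceeded the pairs with Tagln. A higher r than that of Tagln was found in 85 genes for Acta2 and 18 for Myh11. For Tagln, 62 genes had a higher r than Acta2 and 29 than Myh11. For Tpm1, 6171 of the 10278 genes had a higher r than Tagln had. These are descriptions of genes in the same libraries, which share depth and scaling.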

How the data were processed

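The authors deposited raw read counts per Ensembl gene ID, with 1 column for each of the 12 libraries. Per the submitters' processing notes, the tools were FastQC 0.10.1 and HTSeq 0.10.0 and the build was rn6. The sources used here do not give the aligner, annotation release or strand setting. Reads of overlapping genes and of close paralogs, such as other actins and tropomyosins, may be shared. Symbols of the 5 genes came with the list of IDs. Tests were run in edgeR 4.0.16 under R 4.3.3. filterByExpr (minimum count 10, minimum total 15) kept 12496 genes with 99.9% of counts, TMM set the scaling, and a single model of the 3 groups on 12 libraries was tested with robust quasi-likelihood F tests. Log2 CPM used a prior count of 2. Gene pairs were compared with 100000 permutations, or with 13824 permutations within groups. DESeq2 1.42.0, limma 3.58.1 voom and other settings served as alternatives. The edgeR fit was tested on simulated data. Libraries of a group differed by more than sampling noise (chi-square per degree of freedom 16.2 to 51.8). The genes, lists and alternatives were chosen with earlier results of these data known. Named genes were the 5, with the genes most like each in pattern, limited to 4 IDs. Lists of other smooth muscle genes, their regulators and cell type markers by symbol could not be matched to IDs and were not used here.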

Additional observations from a re-analysis of the deposited data

How the results depend on the processing

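The spread between the 4 libraries of a group, not depth, limits these results. None of the 5 genes was called in any of the 3 comparisons under any alternative run, including leaving out each library, DESeq2, limma voom, and leaving out old SVF replicate 2 with old control replicate 4.

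Fold changes near 0 changed sign. For age, Myh11 went from -0.0060 to 0.011 with library totals and 0.0271 with the replicate block. It was at 0.0569 without old SVF replicate 2 and old control replicate 4. Tagln went from 0.06 to -0.137 without young control replicate 3 and old control replicate 1. It went to -0.0829 without young control replicate 3 and old SVF replicate 3. These pairs of libraries were all chosen with earlier results of these data known, and the last was added after the others. For treatment, Tpm1 went from -0.03 to 0.0235 with limma voom, 0.0371 without old SVF replicate 2 and old control replicate 4 and 0.0811 without young control replicate 3 and old control replicate 1. For old SVF against young control, Des went from 0.09 to -0.0047 without young control replicate 3 and old control replicate 1 and to -0.013 without young control replicate 3 and old SVF replicate 3. Without single libraries the ranges were -0.17 to 0.12 for Myh11, -0.0832 to 0.180 for Tagln, -0.17 to 0.12 for Tpm1 and -0.017 to 0.18 for Des in these comparisons. The correlation of Myh11 and Tpm1 was -0.015 with RLE, -0.0896 with library totals, -0.152 with group means removed, and -0.132 to 0.222 without single libraries. That of Tagln and Tpm1 was 0.224 without the 2 farthest libraries, 0.224 without young control replicate 3 and old SVF replicate 3, and -0.265 to 0.165 without single libraries. Without the 2 farthest libraries 1 pair of genes passed, as it did without young control replicate 3 and old SVF replicate 3, against 3 otherwise, 4 with group means removed, and 3 to 4 without single libraries. The causes of these changes were not tested.

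The count of all genes called for age was 5, but 25 with DESeq2, 15 with limma voom, 8 at a threshold of 0.1, 33 without young control replicate 3 and old control replicate 1, 3 without young control replicate 3 and old SVF replicate 3, and 0 to 12 without single libraries. For old SVF against young control it was 8, but 61 with DESeq2, 15 with no filter, 3 with only the 2 groups compared, 2 with the replicate block, 29 with limma voom, 25 at a threshold of 0.1, 32 without old SVF replicate 2 and old control replicate 4, 33 without young control replicate 3 and old control replicate 1, 0 without young control replicate 3 and old SVF replicate 3, and 0 to 22 without single libraries. For old SVF against old control it was 0 throughout, with 367 genes at an unadjusted p under 0.05 by edgeR and 0 called by DESeq2 and limma voom. The replicate numbers are not shown to pair the samples: same-numbered libraries had correlations of -0.0056 to 0.0903 in their deviations from group means, and 2 of 12 libraries correlated best with their own number in both other groups. With the number as a replicate block, 7 genes were called for age, 0 for treatment and 0 of the 5 genes in any comparison.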
